A study of Mus musculus with 6 samples.

Results

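The carnitine shuttle and the long-chain acyl-CoA synthetases were followed in heart ventricle RNA as 10 genes, *Cpt1a*, *Cpt1b*, *Cpt2*, *Slc25a20*, *Crat*, *Slc22a5*, *Acsl1*, *Acsl3*, *Acsl4* and *Acsl5*. They were taken by their symbols in the GENCODE M21 annotation, which were matched to Ensembl identifiers, out of 54232 genes in the counts. The mice were wild-type C57BL/6J animals fed a western diet (WD) for 15 weeks and then needle-fed for 3 weeks, on alternating pairs of days, with Tributyrin at 5 g/kg body weight (WD + Tributyrin, 3 mice) or with vehicle (WD + vehicle, 3 mice), which the labels call PBS. Tributyrin is a triglyceride that carries butyrate. Both groups ate WD, so no chow-fed heart is part of the comparison, and the question was whether Tributyrin changed transcripts in the WD-fed heart. Age is not in the labels. All 6 libraries held between 1571 and 2559 counts of the Y-linked *Ddx3y* and between 0 and 6 counts of *Xist*, the pattern of male mice.

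A fatty acid enters oxidation in several steps. Long-chain acyl-CoA synthetases (the *Acsl* genes) join the fatty acid to coenzyme A. Carnitine palmitoyltransferase 1 on the outer mitochondrial membrane (*Cpt1a*, known as the liver form, and *Cpt1b*, known as the muscle form) moves the acyl group to carnitine, the translocase *Slc25a20* carries acylcarnitine across the inner membrane, and *Cpt2* returns the acyl group to coenzyme A inside. Carnitine itself reaches the cell through the transporter *Slc22a5*, and *Crat* exchanges short acyl groups such as acetyl between coenzyme A and carnitine. The adult heart draws much of its energy from this route, and *Cpt1b* is described as the main form of carnitine palmitoyltransferase 1 in adult heart muscle.

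The libraries held between 20369746 and 32734485 counts. Mitochondrially encoded transcripts took from 23.6% to 26.5% of the counts with vehicle and from 25.9% to 28.8% with Tributyrin. Marker genes were read beside the tissue label. The summed normalized counts of 8 cardiomyocyte genes lay between 1153057 and 1241574 in the 6 libraries, and all 8 were detected. The largest of them, *Myh6* (446245 to 568326), is also a gene of atrial muscle, so this sum does not tell ventricle from atrium. The summed level of 5 atrial genes was from 1414 to 4786 with vehicle and from 815 to 1687 with Tributyrin, and all 5 had a log2 fold change below 0 (median −1.94) without passing the test. The median was −0.31 over 5 fibroblast genes and 0.35 over 4 smooth muscle genes, again with 0 calls. Neither list moved as a set. *Col1a1* was at −0.46, *Col3a1* at −0.39 and *Lum* at −0.31, but *Pdgfra* at −0.007 and *Dcn* at 0.005. *Cnn1* was at 0.71 and *Myh11* at 0.59, but *Acta2* at 0.11 and *Tagln* at 0.08. Of 8 adipocyte genes, *Cidea* had 503 to 660 normalized counts and *Ucp1* had 0. The 7 genes other than *Cidea* summed to 62.8 in vehicle mouse 2 and 89.5 in Tributyrin mouse 2, against 17.2 to 22.9 in the other 4 libraries, and 0 members were called with either mouse left out. The summed level of 6 skeletal muscle genes was between 43.5 and 69.4, with *Tnnc2* at 0. The part of the atrial transcripts and of the mitochondrial share in the results was not tested beyond the fits with these as covariates given below. In whole ventricle, fewer cells of a type and less RNA per cell cannot be told apart.

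How far the 2 forms of carnitine palmitoyltransferase 1 can be told apart, and how *Cpt1b* could be counted, depends on the sequences below. The first lines show the first 50 coding bases, as long as 1 read, of *Cpt1b*, of the annotated gene *Gm44502* and of *Cpt1a*, read 5′ to 3′ from the GENCODE M21 transcripts. Capitals mark the 10 bases at which *Cpt1a* differs from *Cpt1b*. The last line shows an exon of *Cpt1b* that *Gm44502* does not share, in capitals, with 15 bases of the neighbouring exons on either side in lower case.
Cpt1b, coding bases 1 to 50: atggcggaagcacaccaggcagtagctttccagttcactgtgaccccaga
Gm44502, transcript bases 1572 to 1621: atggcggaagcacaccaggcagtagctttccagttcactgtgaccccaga
Cpt1a, coding bases 1 to 50: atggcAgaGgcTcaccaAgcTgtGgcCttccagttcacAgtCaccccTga
Cpt1b, exon 9 with flanks: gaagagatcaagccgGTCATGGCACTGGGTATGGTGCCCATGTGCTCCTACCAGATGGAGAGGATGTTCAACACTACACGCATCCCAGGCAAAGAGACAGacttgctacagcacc

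*Cpt1a* and *Cpt1b* were distinct at the length of a read, since 0 of the 2267 windows of 50 bases in the *Cpt1b* coding sequence were found in *Cpt1a*. No member shared a stretch of 50 bases with another member. *Cpt1b* and *Gm44502* were not distinct. *Cpt1b* (ENSMUSG00000078937) lies on the minus strand of chromosome 15 of GRCm38, chr15:89416405-89425863, and *Gm44502* (ENSMUSG00000116461), annotated as protein coding on the same strand, covers 2744 of its 3372 exonic bases (81.4%). Of the coding windows of *Cpt1b*, 2134 of 2267 (94.1%) also occur in *Gm44502*. In the longest coding transcript of *Cpt1b*, 151 of 2895 bases are not shared. They are exon 1 (66 bases, chr15:89425798-89425863) and the exon 9 printed above (85 bases, all coding, chr15:89422125-89422209), which is 1 of 19 exons and holds 36 windows of the length of a read.

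*Gm44502* has a line of its own in the deposited counts and stood at 0 in all 6 libraries. In its default mode htseq-count, the program the authors used, gives a read that falls on exons of 2 genes of the same strand to neither. The mode used for these files is not given in the sources used here, and without the reads the number left out could not be measured. The count of *Cpt1b* is therefore reported as that of the reads assigned to it and not as its level in the heart.

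**Figure D1:**
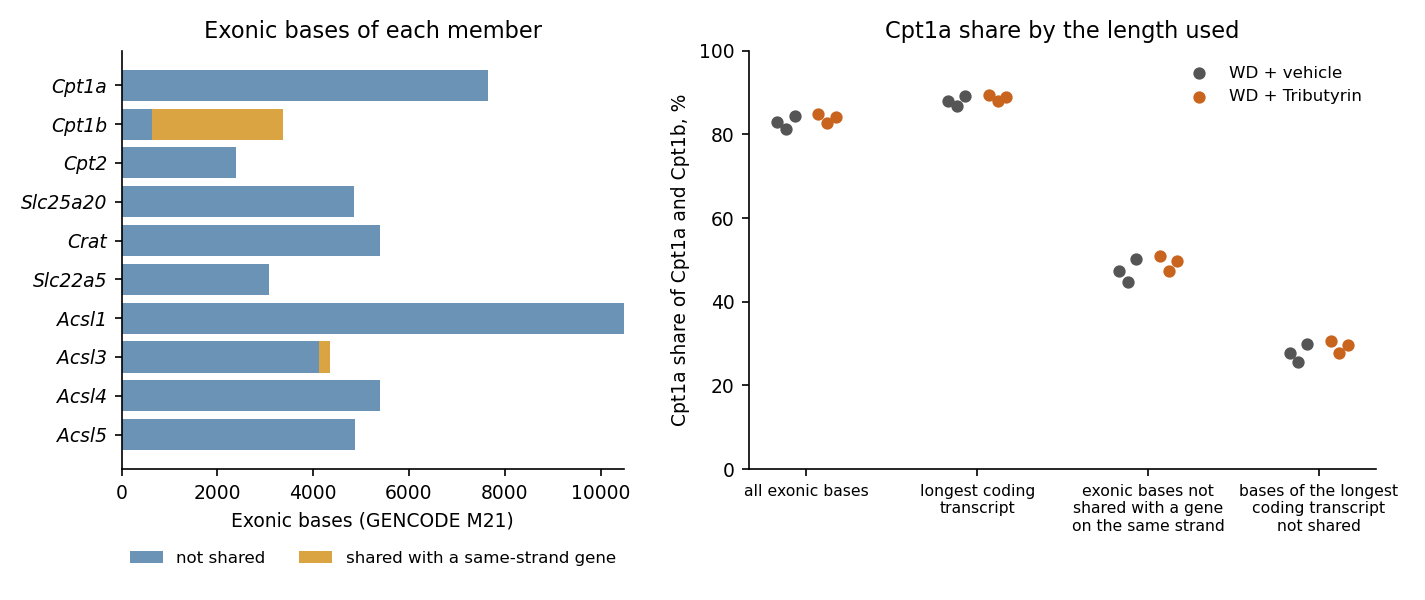
Left, exonic bases of each member in GENCODE M21, split into bases shared with another gene on the same strand and bases not shared. Right, the *Cpt1a* share of *Cpt1a* and *Cpt1b* in percent, 1 point per mouse, by the length by which counts were divided. In *Cpt1b* 2744 of 3372 bases are shared. As the shared bases are left out, the *Cpt1a* share with vehicle moves from 82.8% to 47.4% by exonic length. By the longest coding transcript it moves from 88.0% to 27.8%. The groups overlap under every length, as a length does not change the order of the mice.

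The count of *Cpt1b* was low in every library, between 105 and 173 raw reads, against 1266 to 1739 for *Cpt1a* (ENSMUSG00000024900, plus strand of chromosome 19, chr19:3322334-3385733). Normalized counts, which are counts divided by the size factor of the library, were 156, 134 and 140 for *Cpt1b* with vehicle and 128, 135 and 120 with Tributyrin. The groups overlapped, as one vehicle mouse lay below one Tributyrin mouse. For *Cpt1a* they were 1710, 1317 and 1719 with vehicle and 1626, 1479 and 1452 with Tributyrin. The vehicle mice spread around all 3 Tributyrin mice.

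Divided by exonic length, *Cpt1a* took 82.8% ± 1.57 (SD, n = 3) of the normalized counts per kilobase of the 2 genes with vehicle and 84.0% ± 1.02 (SD, n = 3) with Tributyrin. The difference of 1.12 percentage points was smaller than the SD of the vehicle mice (p = 0.5 in a two-sided exact permutation test over the mice, which cannot go under 0.1 with 3 in each group). The share itself depended on the length used. It was 91.6% with vehicle and 92.2% with Tributyrin by coding length, and 47.4% ± 2.75 and 49.4% ± 1.89 when only exonic bases not shared with a gene on the same strand were counted as length. With the length restricted to the unshared bases of the longest coding transcript it was 27.8% ± 2.21 and 29.4% ± 1.56, so that *Cpt1b* became the larger of the 2. These last lengths apply only if no read on a shared base was counted, which was not tested, and they were chosen after the overlap had been seen. The order of *Cpt1a* and *Cpt1b* in this heart therefore cannot be read from these counts. The comparison between groups uses the same bases in every library, and the exact permutation p was 0.5 under each of these lengths. A length is a constant for each gene and leaves the order of the mice in this share as it was. The repeated p is therefore not further support.

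The long-chain acyl-CoA synthetases could be compared with each other more directly, because only *Acsl3* shares bases with a gene on its strand, 244 with *Utp14b*, whose counts were between 14 and 28. On the opposite strand, *Acsl5* shares 404 exonic bases with *Zdhhc6* (479 to 766 counts), *Acsl1* shares 1039 with *Gm45244* (0 counts), and *Crat* shares 59 with *Dolpp1* (139 to 281 counts) and 411 with the antisense gene *Gm16323* (0 counts). Reads there could be told apart only if they were counted by strand. *Acsl1* (ENSMUSG00000018796, chr8:46471037-46536051, plus strand), the form named for heart and fat tissue, had normalized counts of 35826, 33979 and 34528 with vehicle and 38550, 35880 and 34715 with Tributyrin. It was the most counted member in every library, with 27792 to 43821 raw reads. *Acsl3* (ENSMUSG00000032883, chr1:78657825-78707743, plus strand), a form of the endoplasmic reticulum and lipid droplets, had 206, 125 and 144 with vehicle and 208, 164 and 143 with Tributyrin. It had the widest spread between mice of all members, with a coefficient of variation of 26.7% with vehicle and 19.1% with Tributyrin. *Acsl4* (ENSMUSG00000031278, chrX:142317993-142390535, minus strand), which prefers arachidonic acid, had 357, 285 and 379 with vehicle and 352, 375 and 270 with Tributyrin. *Acsl5* (ENSMUSG00000024981, chr19:55251938-55297720, plus strand), found on mitochondria and the endoplasmic reticulum, had 327, 314 and 323 with vehicle and 302, 315 and 290 with Tributyrin. One Tributyrin mouse lay among the vehicle mice of *Acsl5*, and for *Acsl3* and *Acsl4* the groups overlapped over most of their range. For *Acsl1*, 2 of 3 Tributyrin mice lay above all vehicle mice and the other lay among them.

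Per kilobase of exon, *Acsl1* made up 95.3% ± 0.380 (SD, n = 3) of the 4 synthetases with vehicle and 95.5% ± 0.330 (SD, n = 3) with Tributyrin (two-sided exact permutation test, p = 0.4). *Acsl3* made up 1.04% ± 0.244 with vehicle and 1.08% ± 0.145 with Tributyrin, and *Acsl4* 1.80% ± 0.236 and 1.69% ± 0.242 (exact permutation p = 0.8 and 0.6, n = 3). The share of *Acsl5* was 1.87%, 1.91% and 1.92% in the vehicle mice and 1.61%, 1.80% and 1.73% in the Tributyrin mice. It was the only one of the 5 isoform shares tested in which the groups did not overlap. The means were 1.90% ± 0.0243 and 1.71% ± 0.0962 (SD, n = 3), a difference of −0.184 percentage points with an exact permutation p of 0.1, the smallest the design allows, and 0.5 after Benjamini-Hochberg adjustment over the 5 shares. The share falls where *Acsl5* is lower, and also where *Acsl1*, which makes up most of the total, is higher. Lengths moved the levels of these shares but not the order of the groups, and by the longest coding transcript *Acsl1* held 98.0% and 98.1% of the total. With *Acsl6*, the form known from brain, added to the total, *Acsl1* held 94.2% and 94.5%.

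**Figure D2:**
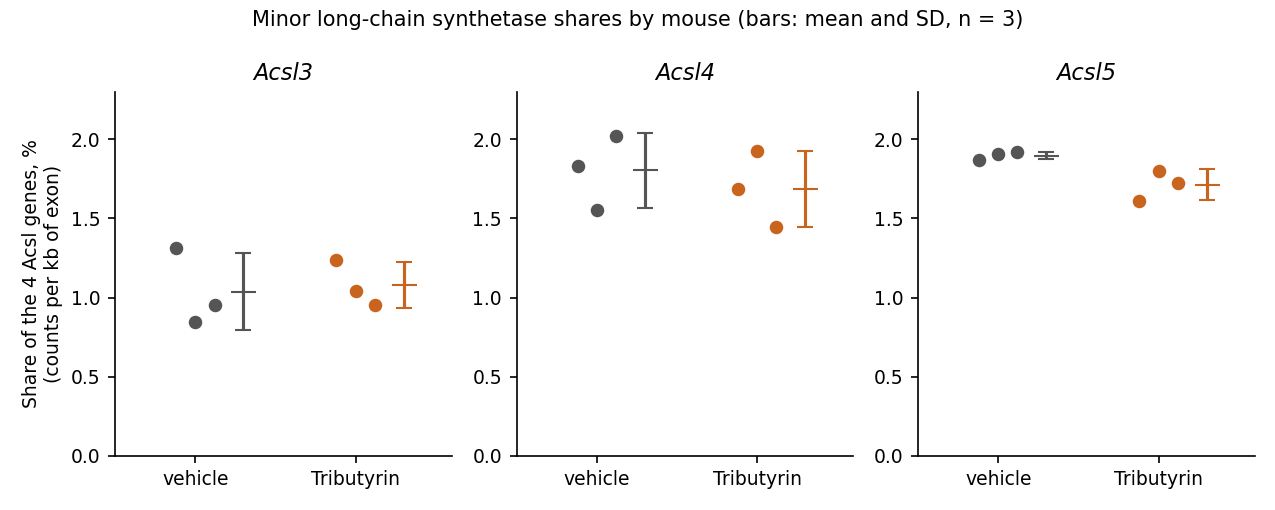
Share of *Acsl3*, *Acsl4* and *Acsl5* in the normalized counts per kilobase of exon of *Acsl1*, *Acsl3*, *Acsl4* and *Acsl5*, in percent, 1 point per mouse, with the mean and SD of each group (n = 3) beside the points. For *Acsl5* the 3 vehicle mice (1.87% to 1.92%) lie above the 3 Tributyrin mice (1.61% to 1.80%), and for *Acsl3* and *Acsl4* the groups overlap.

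Inside the mitochondrion, the shuttle genes were counted far more deeply than the carnitine palmitoyltransferase 1 genes. *Cpt2* (ENSMUSG00000028607, chr4:107903981-107923610, minus strand) had normalized counts of 7322, 7472 and 7034 with vehicle and 8003, 7858 and 7662 with Tributyrin. Every Tributyrin mouse lay above every vehicle mouse, and the mean was 7.77% higher with Tributyrin, at 7841 ± 172 (SD, n = 3) against 7276 ± 222 (SD, n = 3). *Slc25a20* (ENSMUSG00000032602, chr9:108662088-108684641, plus strand) had 6711, 6172 and 5927 with vehicle and 7207, 6089 and 7257 with Tributyrin. Of its Tributyrin mice, 2 lay above all vehicle mice and the other lay among them. *Crat* (ENSMUSG00000026853, chr2:30400471-30415813, minus strand) had 20262, 19564 and 19388 with vehicle and 22048, 20175 and 21254 with Tributyrin. Here too the lowest Tributyrin mouse fell just under the highest vehicle mouse. The carnitine transporter *Slc22a5* (ENSMUSG00000018900, chr11:53864542-53891660, minus strand) had 848, 666 and 716 with vehicle and 867, 698 and 687 with Tributyrin, and the groups overlapped over nearly all of their range. Of the 50-base stretches of *Slc22a5*, 26.3% also occur in other genes, nearly all of them in the carnitine transporter *Slc22a21*. The normalized counts of *Slc22a21* were between 11.9 and 29.8. A read from such a stretch cannot be placed in 1 of these 2 genes by its sequence. Whether and how many such reads are missing from either count was not tested.

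Set against each other per kilobase of exon, the 9 genes other than *Cpt1b* fell into 3 ranges. *Crat* (3795 ± 190, SD, n = 6 libraries), *Acsl1* (3394 ± 156), *Cpt2* (3161 ± 149) and *Slc25a20* (1354 ± 120) were highest, in normalized counts per kilobase. *Slc22a5* (243 ± 28.4) and *Cpt1a* (203 ± 20.99) followed. *Acsl5* (64.1 ± 2.83), *Acsl4* (62.2 ± 8.70) and *Acsl3* (37.8 ± 7.95) were lowest. *Cpt1b* could not be placed. It was at 40.2 ± 3.57 by all exonic bases, near *Acsl3*, at 216 ± 19.2 by unshared exonic bases, near *Cpt1a* and *Slc22a5*, and at 899 ± 79.7 by the unshared bases of its longest coding transcript, above both. These 3 ranges held by each length used, but the order inside them did not. By exonic length *Crat* stood above *Acsl1*, *Acsl1* above *Cpt2* and *Slc22a5* above *Cpt1a* in 6 of 6 libraries, although the ranges of these neighbours over the libraries overlapped. *Acsl5* was above *Acsl4* in 3 of 6 libraries. By the longest coding transcript, *Acsl1* (9130 ± 420 normalized counts per kilobase) came first, *Crat* (4841 ± 242) next, and *Slc25a20* (3680 ± 327) ahead of *Cpt2* (3187 ± 150). By that length *Cpt1a* (359 ± 37.2) was above *Slc22a5* (244 ± 28.5), and *Acsl5* (73.5 ± 3.24) above *Acsl4* (63.6 ± 8.91) in every library. By coding length *Cpt1a* (669) was again above *Slc22a5* (447), and *Acsl4* (158) and *Acsl5* (152) changed places between libraries.

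**Figure D3:**
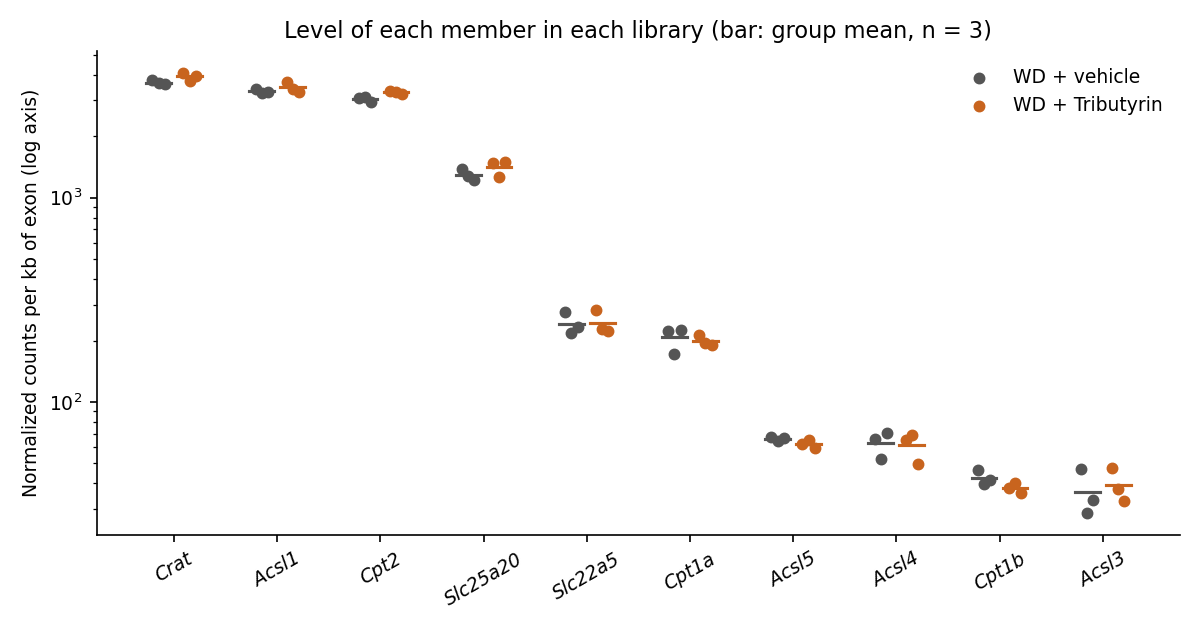
Normalized counts per kilobase of exon of the 10 genes on a log axis, 1 point per library, with a bar at each group mean (n = 3). *Crat*, *Acsl1*, *Cpt2* and *Slc25a20* lie above 1000, *Slc22a5* and *Cpt1a* near 200, and the other 4, *Cpt1b* among them by this length only, below 100, with vehicle and Tributyrin close together for every gene.

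No member passed the test for a difference between WD + Tributyrin and WD + vehicle. All 10 passed the filter on low counts, and 0 of 10 were called at a false discovery rate (FDR) of 10% in the quasi-likelihood test of edgeR, adjusted by Benjamini-Hochberg over all 14133 genes tested, of which 0 were called (0%). The adjusted p of each member was 0.999 in edgeR. No member (0 of 10) had an unadjusted p under 0.05, against 4.25% of all genes tested, and DESeq2 and limma-voom also called 0 members, while DESeq2 called 11 other genes at 10%. The log2 fold changes of Tributyrin over vehicle were above 0 for 6 members and below 0 for 4, with a median of 0.04, against a share above 0 of 49.6% over all genes. With library size alone as the scaling 4 were above 0 and 6 below, with a median of −0.03, and likewise with the mitochondrial share as a covariate, with a median of −0.06. The median size of the log2 fold change was 0.09 in the members and 0.09 over all genes. The groups did not overlap for 1 member, *Cpt2*, which was higher with Tributyrin, as were 4.26% of all genes tested with groups apart in that direction, and no member had its groups apart in the other direction, against 4.65% of all genes.

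The members at high counts bounded a change most closely. *Cpt2* had a log2 fold change of 0.11 (standard error 0.065, 95% interval −0.03 to 0.25), which covers a fold from 0.976 to 1.19. Its unadjusted p of 0.123 in edgeR was the smallest of the members, and the exact permutation p was 0.1, again the smallest possible. *Crat* had 0.10 (standard error 0.067, interval −0.05 to 0.25), *Slc25a20* 0.13 (standard error 0.086, interval −0.06 to 0.32) and *Acsl1* 0.07 (standard error 0.070, interval −0.09 to 0.22). These 4 genes were each above 0, and each interval held 0. *Cpt1a* was at −0.06 (standard error 0.106, interval −0.29 to 0.18) and *Cpt1b* at −0.16 (standard error 0.135, interval −0.46 to 0.14). At the depth of *Cpt1b*, the counting of reads by itself adds a relative SD of up to 9.76%, which is above the coefficient of variation between its mice, 7.81% with vehicle and 5.78% with Tributyrin. The carnitine transporter *Slc22a5* was at 0.02 (standard error 0.119, interval −0.25 to 0.28). Among the minor synthetases *Acsl3* was at 0.13 (standard error 0.203, interval −0.32 to 0.58), *Acsl4* at −0.02 (standard error 0.150, interval −0.36 to 0.31) and *Acsl5* at −0.09 (standard error 0.096, interval −0.30 to 0.13). The widest interval, that of *Acsl3*, reached a fold of 1.49, and the narrowest, that of *Cpt2*, reached 1.19.

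**Figure D4:**
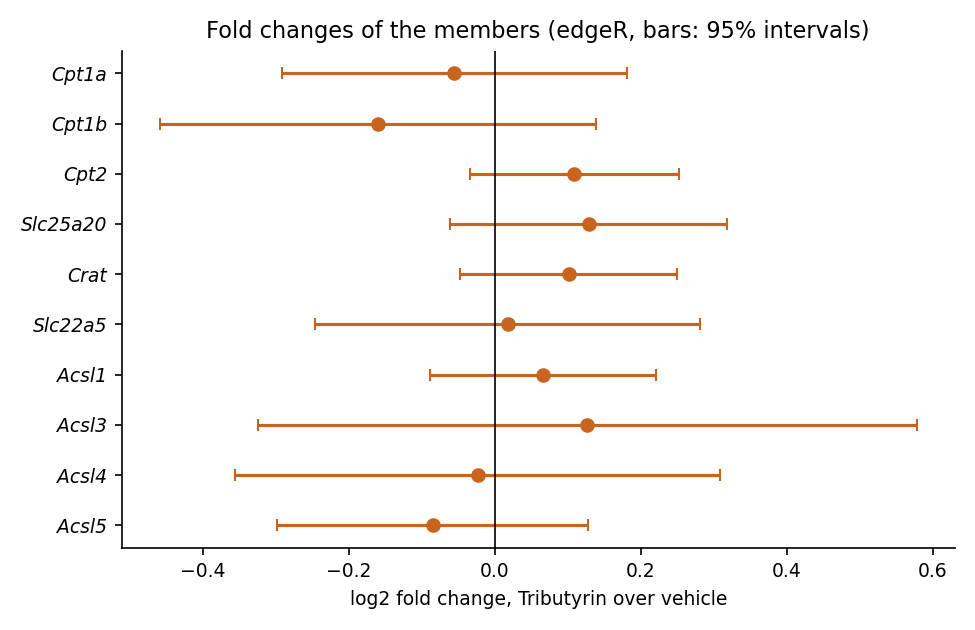
Log2 fold change of Tributyrin over vehicle for the 10 genes, with 95% intervals from edgeR (n = 3 mice per group). Every interval crosses 0, the narrowest are those of *Cpt2*, *Crat* and *Acsl1*, and the widest is that of *Acsl3* (−0.32 to 0.58).

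Because the mitochondrial share of the counts ran higher in the Tributyrin libraries, with overlapping ranges, the fit was repeated with that share as a covariate. *Cpt2* was then at 0.12 and *Acsl1* at 0.04, whereas *Slc25a20* moved to −0.06, *Slc22a5* to −0.16, *Acsl3* to −0.16 and *Acsl4* to 0.07 on the log2 scale. With an atrial score as a covariate, all 10 members kept their sign. This score was the mean log2 CPM of the atrial genes, and their summed level was not fitted. Neither fit called a member.

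Other genes of the pathway gave 0 calls at an FDR of 10%. Of 8 genes for carnitine supply and other carnitine acyltransferases, 6 could be tested, 4 with a log2 fold change above 0 and 2 below, with a median of 0.06. *Slc22a21*, a carnitine transporter, was highest at 0.53 (standard error 0.388), at 13.5 to 17.4 normalized counts with vehicle and 11.9 to 29.8 with Tributyrin. *Slc16a9*, a monocarboxylate transporter family member tied to carnitine export, was lowest at −0.25 (standard error 0.200). *Aldh9a1*, an aldehyde dehydrogenase of carnitine synthesis, had the highest level per kilobase, with 800.2 to 844.0 normalized counts with vehicle and 857 to 939 with Tributyrin. Its groups did not overlap, and neither did those of *Slc22a4*, a transporter of organic cations named here after its values were seen, at 88.3 to 102 and 116 to 123. *Tmlhe*, which starts carnitine synthesis, had 0 counts in all 6 libraries.

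Of 19 other acyl-CoA synthetases, 11 could be tested, 6 above 0 and 5 below, with a median of 0.05. *Acsm5*, of the medium-chain family, had 230 to 285 normalized counts with vehicle and 324 to 413 with Tributyrin, a log2 fold change of 0.51 (standard error 0.127). The groups did not overlap, and its adjusted p was 0.999 in edgeR. *Slc27a3*, of the fatty acid transport protein family, was lowest at −0.43 (standard error 0.269), with 26.1 to 31.02 normalized counts with vehicle and 19.2 to 22.9 with Tributyrin, and its groups did not overlap. *Acss1*, the mitochondrial acetyl-CoA synthetase, had the highest level per kilobase, with 11197 to 12174 normalized counts with vehicle and 11875 to 12504 with Tributyrin. *Acsbg2*, *Acsm1*, *Acsm4* and *Slc27a2* had 0 counts.

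Malonyl-CoA is the known inhibitor of carnitine palmitoyltransferase 1, and acyl-CoA binding proteins carry the product of the synthetases. All 8 genes of this list were tested, 7 above 0 and 1 below, with a median of 0.05. *Acbd4*, an acyl-CoA binding protein, was highest at 0.21 (standard error 0.0998), with 295 to 333 normalized counts with vehicle and 342 to 379 with Tributyrin, and its groups did not overlap. *Acaca*, an acetyl-CoA carboxylase that makes malonyl-CoA, was the lowest at −0.04 (standard error 0.112). *Dbi*, the main acyl-CoA binding protein, had the highest level per kilobase, with 3070 to 3425 and 3138 to 3658 normalized counts. Over the 3 lists together the groups did not overlap for the 5 genes named above, against 8.91% of all genes tested in either direction. Of the 6 carnitine supply and acyltransferase genes tested, 2 were apart and higher with Tributyrin. Of the 11 other synthetases tested, 1 was apart and higher and 1 apart and lower. Of the 8 genes of the last list, 1 was apart and higher. These counts were not tested.

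The genes most like *Cpt1a*, *Cpt1b* and *Acsl1* across the 6 libraries were found by the root mean square difference of centred log2 CPM among the 14133 genes tested, with the 10 members left out of the search. For *Cpt1a* they were *Igsf3* (0.04 log2 units), *Zcchc4* (0.05) and *Syt7* (0.05), where the own spread of *Cpt1a* was 0.13. For *Cpt1b* they were *Heatr5a* (0.02), *Ncoa4* (0.03) and *Plce1* (0.03), against an own spread of 0.11. For *Acsl1* they were *Pnpla8* (0.01), *2900076A07Rik* (0.01) and *Ndufs1* (0.02), against 0.06.

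Promoter windows of 300 bases around annotated starts (RefSeq, GRCm38.p6) were given for 8 of the 10 members in 9 windows. No window was given for *Cpt1b* or *Crat*, so nothing below covers these genes. They were searched on both strands for letters that transcription factors of the fatty acid oxidation programme are known to bind, and for the CRE and TATA letters. The direct repeat of AGGTCA with 1 base between the copies, bound by PPAR with RXR, was in 0 of the 9 windows and in 0.0396% of all 32851 windows. TCAAGGTCA, bound by estrogen-related receptors, was in 0 of 9 and in 0.423% of all. AGGTCA alone, which is part of both, was in 1, that of *Cpt1a*, and in 16.3% of all. For MEF2, whose site has A or T between CTA and TAG, the search allowed any 4 bases there. This wider pattern was in 0 of 9 and in 3.69% of all, which is not the frequency of the site itself. The CRE letters TGACGTCA were in 0 of 9 and in 1.79% of all, and the TATA letters TATAAA in 0 of 9 and in 13.6% of all. Counts of the CG dinucleotide per window ran from 4 in one start of *Acsl1* to 34 in *Slc22a5*.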

How the data were processed

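Heart ventricle RNA of 6 mice was measured by stranded mRNA sequencing with single-end reads of 50 bases. The authors trimmed adapters, removed poor and rRNA reads, aligned with STAR and counted reads per gene with htseq-count. They deposited whole-number counts without normalization. The submitters' processing notes name cutadapt 1.13, STAR, HTSeq 0.6.1p1, DESeq2 1.14.1 and mm10. For the annotation release, and for the mode and strand option of htseq-count, nothing was given in the sources used here.

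Groups followed the labels. The replicate numbers name separate mice, and the labels do not say that they pair them. No pair of libraries agreed within sampling noise (chi-square per degree of freedom 7.40 to 31.8 over genes that sum to 20 counts or more in the pair). Of the identifiers, 54165 matched GENCODE M21 (GRCm38), which gave positions and lengths, and 25581 genes had at least 1 count. The counts were compared with edgeR 4.0.16 (R 4.3.3) over all 6 libraries, with the quasi-likelihood test, TMM scaling, filterByExpr (minimum count 10, minimum total 15), Benjamini-Hochberg adjustment over 14133 genes and no covariate, at an FDR of 10% and of 5%. Normalized counts are counts divided by DESeq2-type size factors. Shares were compared with two-sided exact permutation tests (Python 3.11.15, scipy 1.17.1). Values named are those of the members, of the highest and lowest fold change and the highest level per length in each pathway list, of overlapping genes and of the 3 genes most like *Cpt1a*, *Cpt1b* and *Acsl1*. The members and lists were chosen with earlier results of these data known. Promoter windows of 1 chromosome were not used here. Alternatives were DESeq2 1.42.0, limma-voom (limma 3.58.1), other scalings, filters, covariates and lengths, the replicate number as a block, and each mouse left out. The edgeR step was tested on simulated data of this comparison (14141 genes, 3 simulations, 200 changed genes) and recovered 12.7% of genes changed by 0.3, 50.7% at 0.5, 92% at 1 and 100% at 2 on the log2 scale at an FDR of 10%.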

Additional observations from a re-analysis of the deposited data

How the results depend on the processing

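No member was called at an FDR of 10% under any of 15 alternatives to the edgeR fit, and the smallest adjusted p of a member among them was 0.425. Of the 150 member fold changes under these alternatives, 133 kept their direction and 17 changed it, 10 of them with a mouse left out. *Cpt1b*, *Cpt2*, *Crat* and *Acsl5* kept their sign in all of them. With library size alone as the scaling, *Acsl1* was at −0.00535 and *Slc22a5* at −0.052, and limma-voom put *Acsl4* at 0.000272. With the mitochondrial share as a covariate *Slc22a5* was at −0.16, *Acsl4* at 0.067, *Slc25a20* at −0.061 and *Acsl3* at −0.16. The cause of these changes was not tested. When single mice were left out, the log2 fold change ran from −0.17 to 0.010 for *Cpt1a*, from −0.094 to 0.13 for *Slc22a5*, from −0.030 to 0.37 for *Acsl3* and from −0.14 to 0.11 for *Acsl4*, and that of *Cpt2* from 0.09 to 0.13. The median over the members ran from −0.04 to 0.11, and it was −0.029 with library size alone and −0.059 with the mitochondrial share as a covariate. The difference in share ran from −0.0559 to 0.178 percentage points for *Acsl3*, from −0.242 to 0.00452 for *Acsl4* from −0.228 to −0.133 for *Acsl5*, from 0.0834 (without Tributyrin mouse 3) to 0.478 (without vehicle mouse 2) for *Acsl1*, and from 0.326 (without vehicle mouse 2) to 1.89 (without vehicle mouse 3) for *Cpt1a*. Over all genes, 0 were called at 10% and at 5% in the edgeR fit. Without the filter on low counts there were 167 and 140, with DESeq2 11 and 5, and with a mouse left out from 0 to 3 and from 0 to 3. The labels do not say that the replicate numbers pair the mice, and the correlations of same-numbered mice were 0.21, 0.04 and 0.01. With the number as a replicate block 2 genes were called at 10%, 0 of them members. The exact permutation p of the *Acsl5* share was then 0.25, the smallest that 3 pairs allow. The counting error of *Cpt1b* (up to 9.76%) and *Acsl5* (up to 6.29%) was above the coefficient of variation between mice in both groups, while that of *Acsl3* (up to 9.28%) and *Acsl4* (up to 6.52%) was below it. A change of 0.3 on the log2 scale would mostly be missed with 3 mice per group.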
